A study of Mus musculus with 22 samples.

Results

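Interferon response genes are the genes that cells switch on after interferon binds its receptors. A list of 42 of them was followed by gene symbol through the livers of 22 female C57BL/6 mice, out of 53392 genes in the count table. Each symbol matched 1 row of the table through its Ensembl identifier, and all 42 passed the filter on low counts, as did 15928 genes in all. No expression value entered the choice of a row. The mice formed 4 groups with 1 liver library per mouse: 5 germ-free pregnant (GP), 5 conventional pregnant (CP), 6 germ-free non-pregnant (GN) and 6 conventional non-pregnant (CN). Germ-free mice are raised without microorganisms, and conventional mice carry an ordinary gut microbiota. Pregnant mice were labelled as taken at gestation day 15, a day that was assumed in germ-free mice because their matings lasted 72 h. The age labels, whose unit is not stated, were 91 to 121 in GP, 70 to 77 in CP, 92 to 105 in GN and 70 to 77 in CN, so microbiota status and age cannot be told apart. The series' title concerns the microbiome and drug-processing genes of the liver in pregnancy, and interferon genes are not named there.

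Type I interferons signal through the kinases JAK1 and TYK2 to a complex that contains STAT2 and IRF9 and binds the interferon-stimulated response element in promoters. Interferon gamma, made mainly by T and NK cells, signals through JAK1 and JAK2 to factors that bind the gamma-activated site, and it induces IRF1. The induced proteins block viral replication, load peptides on MHC class I, break open the vacuoles of intracellular parasites and attract T cells. In the liver, hepatocytes, Kupffer cells and endothelial cells all carry interferon receptors.

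The promoters of the members held the response element more often than promoters at large, and stretches are shown here for 6 genes that the results below return to. RefSeq windows of 300 bases (250 before and 50 after the start, GRCm38.p6) were present for 32 of the 42 genes, in 36 windows. The core GAAANNGAAA, searched on both strands, stood in 19 of the 36 windows (52.8%), against 1131 of 32851 windows of all genes in the table (3.44%). The core of the gamma-activated site, TTCNNNGAA, which reads the same on both strands, stood in 9 of the 36 (25.0%), against 2726 of the 32851 (8.3%). Among genes mainly induced by type I interferon, 13.3% of 15 windows held TTCNNNGAA, and among genes mainly induced by interferon gamma, 38.5% of 13 windows did. A match describes the letters and not a bound site. In each stretch of 80 bases below, given 5′ to 3′ on the gene's strand, capitals mark GAAANNGAAA in either orientation, and neighbouring matches may overlap. The 2 cores can share letters.
Cxcl10, chr5:92349053-92349132, minus strand, 1 match: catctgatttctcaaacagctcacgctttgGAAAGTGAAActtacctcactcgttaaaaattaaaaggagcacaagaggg
Gbp3, chr3:142559946-142560025, plus strand, 2 matches: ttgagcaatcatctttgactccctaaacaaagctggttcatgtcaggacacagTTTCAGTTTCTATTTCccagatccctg
Igtp, chr11:58199476-58199555, plus strand, 1 match: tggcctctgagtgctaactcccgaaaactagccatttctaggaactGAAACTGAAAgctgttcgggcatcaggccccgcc
Isg15, chr4:156200847-156200926, minus strand, 3 matches: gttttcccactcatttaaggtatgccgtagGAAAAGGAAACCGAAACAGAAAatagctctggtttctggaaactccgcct
Bst2, chr8:71537553-71537632, minus strand, 2 matches: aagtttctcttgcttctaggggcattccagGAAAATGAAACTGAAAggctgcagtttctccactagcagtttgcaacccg
Ifit3, chr19:34583343-34583422, plus strand, 2 matches: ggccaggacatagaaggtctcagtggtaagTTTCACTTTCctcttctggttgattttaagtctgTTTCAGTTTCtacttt
The Ifit3 stretch ends 107 bases before the RefSeq start, and the same 80 letters stand before Ifit3b, a near-copy of Ifit3 on the same chromosome. The Igtp stretch ends at the last base before the start. Usp18, Mx1, Mx2, Ifi27, Dhx58, Iigp1, Zbp1, Oas2, Gbp6 and Parp14 had no window.

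Library totals were 18064491 to 30036912 estimated counts, and levels below are CPM, counts scaled to the TMM-adjusted library total. The summed CPM of 8 hepatocyte markers, among them albumin, was 64210 to 262100, and each of the 8 was detected. One conventional pregnant liver, CP replicate 2, stood apart from the other 21 before any comparison is made. Its 12 acute phase genes summed to 32230 CPM, against 4403 to 12180 CPM in the other 21 libraries, and its 10 neutrophil markers to 83.6 CPM, against 1.38 to 7.33 CPM. Counts and called genes of comparisons that include the CP group are therefore given with and without it.

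Per length, the members covered a wide range of levels. Bst2, a membrane protein that tethers budding viruses to the cell surface, was highest with 191 CPM per kilobase of exon on average over the 22 libraries. Ifi27, a mitochondrial membrane protein, had 53.6, and Iigp1, a GTPase that attacks parasite vacuoles, had 53.4 CPM per kilobase. Lowest were the synthetase Oas3 with 0.326 and the GTPase gene Mx1 with 0.286 CPM per kilobase. Iigp1 ranged over 269.5 to 327 CPM in GP, 306 to 662 CPM in CP, 193 to 433 CPM in GN and 229.9 to 348 CPM in CN. The 4 ranges overlapped, and with CP replicate 2 aside the 4 groups lay within the GN range.

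**Figure D1:**
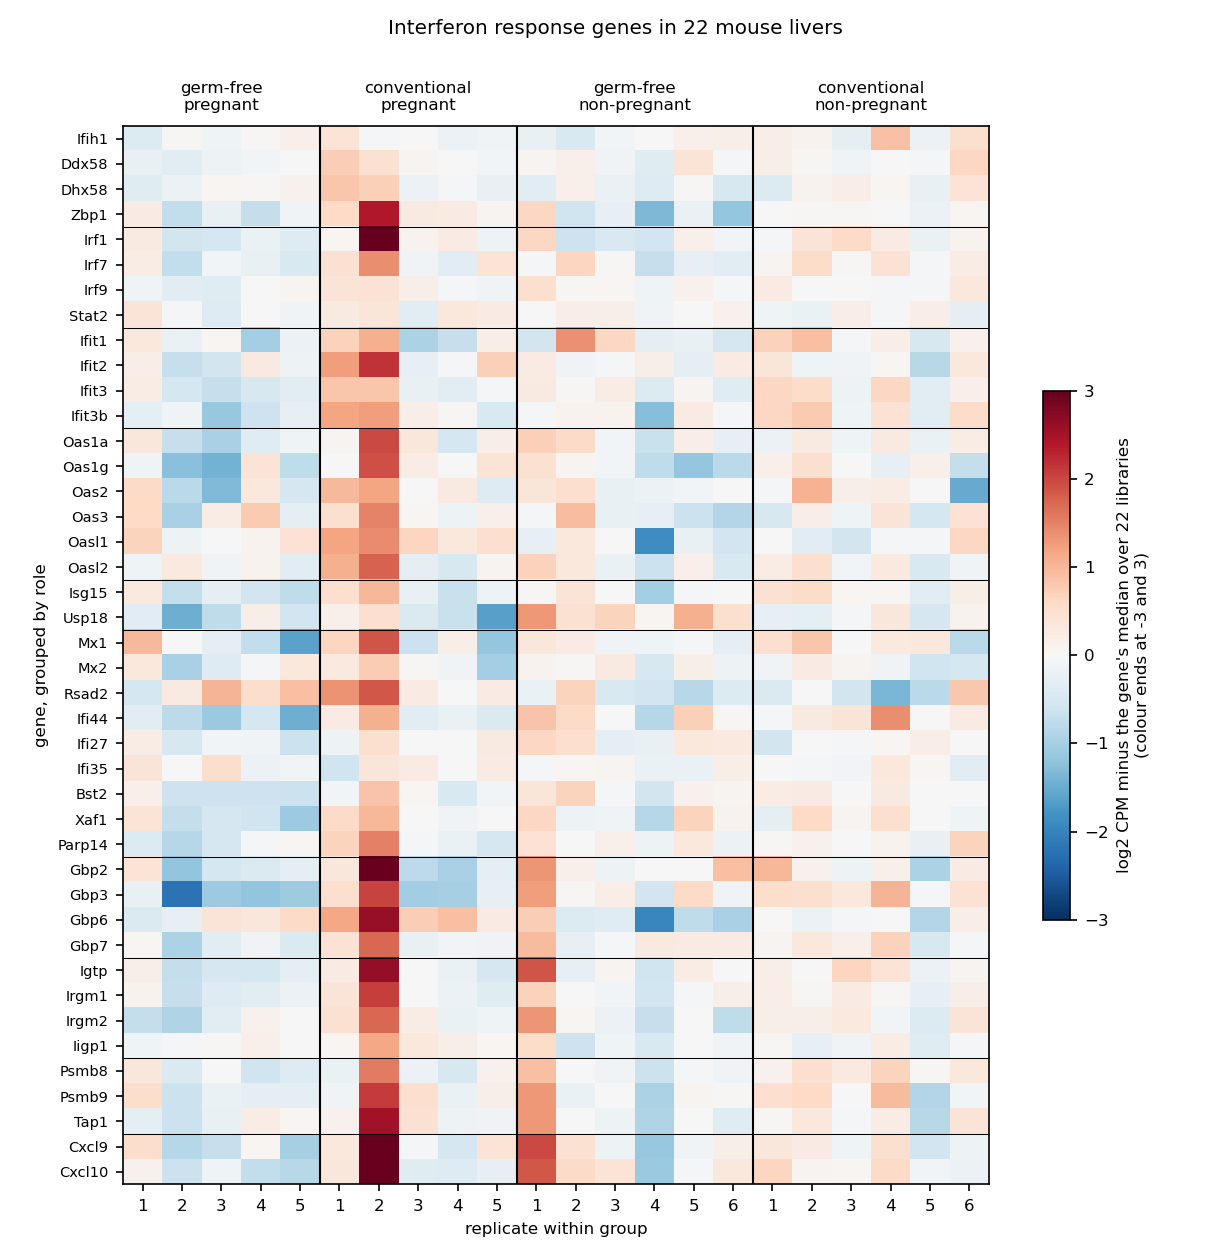
Heat map of the 42 interferon response genes (rows, grouped by role) in 22 livers (columns, by group and replicate), coloured by log2 CPM relative to the gene's median over all libraries. CP replicate 2 is the brightest column, being highest of 22 for 32 genes, and GN replicate 4 is lowest of 22 for 12.

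CP replicate 2 was the highest of the 22 libraries for 32 of the 42 members and the highest of its group for 39. The 10 members with a higher value elsewhere were Ifit1, Irf9, Stat2, Usp18, Ifi44, Ifi27, Ifi35, Ifih1, Ddx58 and Dhx58. Its ratio to the median of the other 4 CP livers had a median of 2.90 over the members, ran from 0.997 to 181, and exceeded 2 for 31 of them. These ratios describe 1 mouse and carry no test.

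The T cell-attracting chemokines led. Cxcl10 (ENSMUSG00000034855, chr5:92346638-92348889, minus strand), whose promoter stretch is shown above, had 2.63, 1.49, 2.19, 1.40 and 1.29 CPM in GP livers. It had 3.07, 345, 1.84, 1.81 and 1.99 CPM in CP replicates 1 to 5. It had a lowest value of 1.05, a median of 3.10 and a highest value of 8.96 CPM in GN, against a lowest value of 2.12, a median of 2.51 and a highest value of 3.78 CPM in CN. Outside CP replicate 2 no liver exceeded 9 CPM, so 1 library held almost all of the Cxcl10 signal of its group. Cxcl9 (ENSMUSG00000029417, chr5:92321347-92328079, minus strand), its neighbour on the chromosome and a ligand of the same receptor, had 14.2, 5.36, 6.04, 10.2 and 4.89 CPM in GP. It had 12.2, 491, 9.40, 6.86 and 13.1 CPM in CP. It had a lowest value of 4.37, a median of 10.1 and a highest value of 39.0 CPM in GN, against a lowest value of 6.56, a median of 10.2 and a highest value of 13.7 CPM in CN. CP replicate 2 was 181 times the median of the other CP livers for Cxcl10 and 45.4 times for Cxcl9.

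The guanylate-binding proteins, GTPases that coat and break pathogen vacuoles, came next with a median ratio of 4.84 over 4 genes. Gbp2 had 67.3 CPM in CP replicate 2, against 2.89 to 7.38 CPM in the other 4 CP livers, Gbp3 59.2 against 6.95 to 20.4 CPM, Gbp6 118 against 22.6 to 43.0 CPM and Gbp7 63.6 against 16.5 to 26.0 CPM. The immunity-related GTPases had a median ratio of 3.83, with Igtp at 192 CPM against 22.0 to 36.4 CPM, Irgm1 at 163 against 30.1 to 50.2 CPM, Irgm2 at 107 against 28.3 to 44.7 CPM and Iigp1 at 662 against 306 to 367 CPM. The gene models of Igtp and Irgm2 overlap on the same strand, so their reads cannot be fully separated. The antigen-processing genes had a median ratio of 4.19. They were the immunoproteasome subunits Psmb8 at 122 CPM against 29.7 to 45.7 CPM and Psmb9 at 99.1 against 20.2 to 32.8 CPM, and the peptide transporter Tap1 at 116 against 18.2 to 27.6 CPM. Tap1 and Psmb9 overlap on opposite strands, and a library kit that does not mark strand was used. In all 11 genes of these 3 families CP replicate 2 lay above the other 21 livers.

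The transcription factors differed among themselves. Irf1, the factor induced by interferon gamma, had 229.5 CPM in CP replicate 2, against 22.3 to 29.4 CPM in the other 4, and Irf7, which amplifies type I interferon, had 104 against 31.4 to 54.1 CPM. Irf9 and Stat2, members of the type I complex, had 27.3 against 18.8 to 26.4 CPM and 61.1 against 37.2 to 58.5 CPM. For Irf9 and Stat2 other livers of the series were higher still.

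The antiviral families had lower median ratios in the same liver. All of their genes but Bst2, Parp14 and Ifi35 were listed as mainly induced by type I interferon. Over the 4 Ifit genes, which bind foreign RNA ends and block its translation, the median ratio was 2.29: Ifit1 2.37, Ifit2 3.51, Ifit3 1.96 and Ifit3b 2.20. Over the 6 oligoadenylate synthetase genes, which sense double-stranded RNA or share that fold, it was 3.16: Oas1a 3.68, Oas1g 3.63, Oas2 2.10, Oas3 2.69, Oasl1 1.80 and Oasl2 3.67. The transcripts of Ifit3 and Ifit3b are 97.8% identical over 1700 aligned bases, and those of Oas1a and Oas1g 97.5% over 1860, so the 4 are uncertain individually. The ubiquitin-like protein Isg15 had a ratio of 2.27 and its protease Usp18, which also silences the type I receptor, 2.07. Among the other genes listed as antiviral effectors, the ratios were 4.54 for Mx1 and 1.76 for Mx2, a polymorphic pseudogene in the annotation. They were 3.10 for viperin (Rsad2), 1.93 for Bst2, 2.01 for the apoptosis regulator Xaf1 and 3.15 for the ADP-ribosyltransferase Parp14. For Ifi44, Ifi27 and Ifi35 they were 2.57, 1.40 and 1.20.

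The sensors of viral RNA lay within their group in CP replicate 2, and a sensor of Z-form nucleic acid lay above it. Ifih1 (MDA5), Ddx58 (RIG-I) and their regulator Dhx58 had 25.2, 20.5 and 12.9 CPM there, inside the range of the other 4 CP livers (23.4 to 34.9, 14.0 to 25.0 and 6.64 to 14.0 CPM). Zbp1, which triggers necroptosis, had 55.2 CPM against 10.9 to 15.8 CPM. Over the 13 genes listed as mainly induced by interferon gamma the median ratio was 4.51 and each of the 13 exceeded 2. Over the 20 listed as mainly induced by type I interferon it was 2.30 and 15 exceeded 2. The lists draw on textbook knowledge, and most of these genes answer to both interferons.

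**Figure D2:**
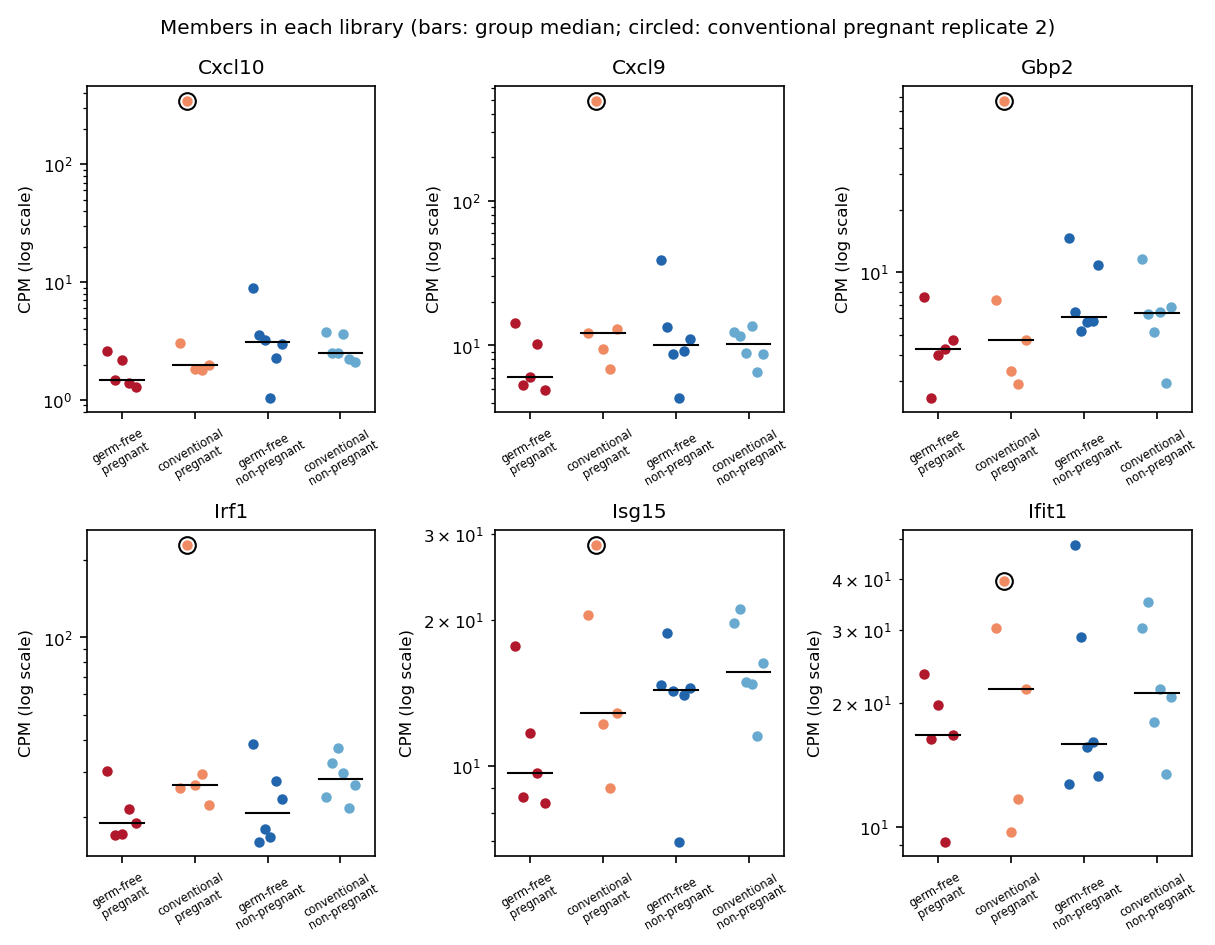
CPM (log scale) of 6 members in each library by group (GP, CP, GN, CN from left), with bars at the group median. The CP point far above the rest for Cxcl10 (345 CPM), Cxcl9 (491 CPM), Gbp2 and Irf1 is CP replicate 2, which separates less for Isg15 and Ifit1.

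The interferons themselves were near or at 0 counts. Ifng, which encodes interferon gamma, had 86 counts (3.76 CPM) in CP replicate 2, and the next library, CN replicate 1, had 8 (0.356 CPM). Outside CP replicate 2, Ifng had 28 counts in 10 libraries, so it was not past the filter and was not tested. Ifna1, Ifna4, Ifna5, Ifnb1, Ifne, Ifnl2 and Ifnl3 had 0 counts in all 22 libraries, which allows up to 3 counts per library, or 0.0946 to 0.190 CPM. Ifna2 had 2 counts in all and Ifnk 19, of which 7 were in CN replicate 2. Other interferon genes of the mouse were not looked at.

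An inhibitor of the pathway and markers of other cell types were also high in CP replicate 2. Socs1, the feedback inhibitor of JAK kinases, had 36.2 CPM there, against 0.104 to 0.612 CPM in the other 4 CP livers. Markers of T and NK cells (8 genes) summed to 31.3 CPM, against 2.44 to 9.06 CPM in the other 21 libraries. Kupffer cell markers (8) summed to 1274 CPM against 180 to 611 CPM, monocyte markers (6) to 199 CPM against 29.8 to 119 CPM, and B and plasma cell markers (6) to 12.1 CPM against 2.79 to 10.3 CPM. Plasmacytoid dendritic cell markers (6) summed to 5.34 CPM, inside the range of the other libraries (1.501 to 5.48 CPM). No marker of these lists was at 0 in all libraries. The part of these cells in the gene levels was not tested, and in bulk tissue fewer cells of a type and less RNA per cell cannot be told apart.

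A milder pattern of similar order stood in 1 germ-free non-pregnant liver, GN replicate 1. Its ratio to the median of the other 5 GN livers had a median of 1.502 over the 42 members and exceeded 2 for 12 of them, and with CP replicate 2 aside it was the highest library for 18. The chemokines led again, with 8.96 CPM of Cxcl10 against 1.05 to 3.58 CPM and 39.0 CPM of Cxcl9 against 4.37 to 13.4 CPM. Igtp had 115 against 20.3 to 36.0 CPM and Tap1 49.8 against 10.7 to 20.2 CPM. The interferon gamma list had a median ratio of 2.49, and the type I list of 1.22. Its T and NK cell markers summed to 9.06 CPM, against 2.44 to 7.30 CPM in the other 5 GN livers, its Kupffer cell markers to 457 CPM, against 180 to 378 CPM, its monocyte markers to 82.9 CPM, against 31.65 to 64.8 CPM, and its B and plasma cell markers to 10.3 CPM, against 4.10 to 8.98 CPM. Its neutrophil markers summed to 2.84 CPM, within the 1.38 to 7.33 CPM of the libraries other than CP replicate 2. Ifit1, by contrast, was lower in GN replicate 1 (12.7 CPM) than in each of the other 5 (13.3 to 48.4 CPM).

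**Figure D3:**
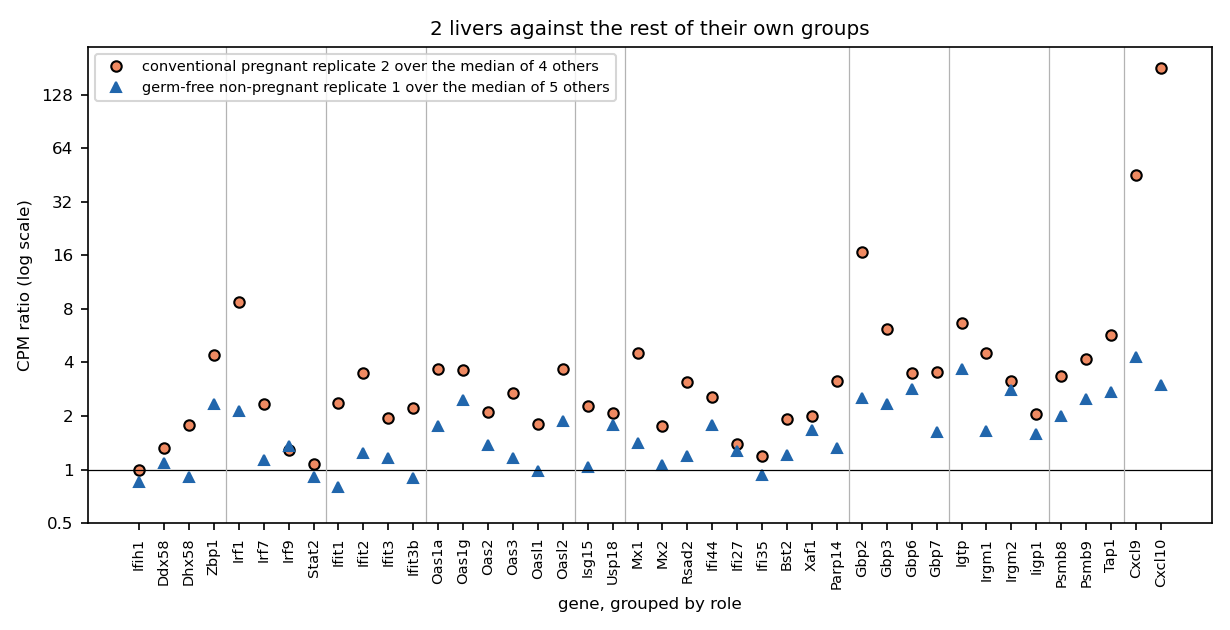
Ratio of CPM (log scale) for each of the 42 members, grouped by role: CP replicate 2 over the median of the other 4 CP livers, and GN replicate 1 over the median of the other 5 GN livers. The chemokines, Gbp, Irg and antigen-processing genes are raised in both livers, with Cxcl10 at 181 in CP replicate 2 and 3.00 in GN replicate 1, and the Ifit genes lie near 1 in GN replicate 1.

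In conventional pregnancy 5 members were called higher and none lower with all libraries, and none without CP replicate 2. In the edgeR quasi-likelihood fit of all 22 libraries, with p-values adjusted over all genes tested, Cxcl10, Cxcl9, Gbp6, Ifit2 and Oasl1 were higher in CP than in CN at an adjusted p under 0.05. That is 11.9% of the members, against 5.49% of all tested genes called higher and 3.52% called lower. Without CP replicate 2 the shares over all genes were 4.14% and 2.33%, and 0 of the 42 members were called. At an unadjusted p under 0.05 stood 6 members without that library (14.3%), against 18.1% of all genes. DESeq2 on all libraries also called 5 higher, namely Gbp6, Ifit2, Oasl1, Rsad2 and Zbp1. It gave no adjusted p for Cxcl9, Cxcl10, Irf1, Gbp2, Igtp and Tap1. Of 35072 genes, a set without the low-count filter, DESeq2 called 998 higher and 879 lower. The median change of the members was 0.37 on the log2 scale, against 0.04 over all genes, with 38 of 42 above 0. Without CP replicate 2 the median was 0.002, against 0.01 over all genes, and 21 of 42 were above 0. Fitting only the CP and CN libraries left Gbp6 and Oasl1 called, and a fit with the replicate number as a block called Gbp6 and Rsad2.

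For the chemokines the call rested on that library. Cxcl10 had a log2 fold change of 4.67 ± 1.08 (SE, adjusted p = 0.0071) in CP over CN with all libraries and of -0.35 ± 0.39 (SE, adjusted p = 0.73) without CP replicate 2, a turn in sign. Cxcl9 had 3.38 ± 0.87 (SE, adjusted p = 0.015) with all libraries and 0.01 ± 0.42 (SE, adjusted p = 0.99) without that one. Without CP replicate 2 Cxcl10 averaged 2.18 ± 0.600 CPM in CP (SD, n = 4), against 2.79 ± 0.719 CPM in CN (SD, n = 6).

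Gbp6 differed from the chemokines in that each CP liver lay above each CN liver. The same held narrowly for Zbp1, with a lowest value of 10.92 CPM in CP and a highest of 10.78 CPM in CN. The share of all genes without overlap was not counted. Gbp6 (ENSMUSG00000104713, chr5:105270702-105293698, minus strand) had 43.0, 118, 31.9, 36.0 and 22.6 CPM in CP, against a lowest value of 10.3, a median of 18.7 and a highest value of 21.6 CPM in CN. Its log2 fold change was 1.52 ± 0.39 (SE, adjusted p = 0.014) with all libraries and 0.92 ± 0.33 (SE, adjusted p = 0.10) without CP replicate 2. In germ-free mice Gbp6 had 14.3, 16.1, 25.2, 24.3 and 28.8 CPM in GP, against a lowest value of 4.84, a median of 12.9 and a highest value of 32.0 CPM in GN, and the groups overlapped. Its change there was 0.58 ± 0.39 (SE, adjusted p = 0.39).

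Ifit2 and Oasl1 overlapped between the groups. Ifit2 (ENSMUSG00000045932, chr19:34550694-34576419, plus strand) had 9.62, 18.2, 3.34, 3.80 and 6.59 CPM in CP, against a lowest value of 2.21, a median of 3.90 and a highest value of 5.11 CPM in CN. Its change was 1.08 ± 0.33 (SE, adjusted p = 0.039) with all libraries and 0.57 ± 0.27 (SE, adjusted p = 0.27) without CP replicate 2, and CP replicate 1 was its second highest library. Oasl1 (ENSMUSG00000041827, chr5:114923240-114937915, plus strand), which restrains translation of Irf7 in mice, had 11.0, 12.9, 7.56, 5.99 and 6.80 CPM in CP, against a lowest value of 3.26, a median of 4.62 and a highest value of 7.48 CPM in CN. Its change was 0.90 ± 0.28 (SE, adjusted p = 0.049) and 0.72 ± 0.29 (SE, adjusted p = 0.16). Viperin, an enzyme that makes a chain-terminating nucleotide, missed the threshold with a change of 1.18 ± 0.38 (SE, adjusted p = 0.056) in edgeR and passed it in DESeq2 (adjusted p = 0.029). It had 13.6, 19.4, 6.23, 5.23 and 6.27 CPM in CP, against a lowest value of 1.97, a median of 3.70 and a highest value of 9.30 CPM in CN.

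The remaining members missed the threshold in conventional pregnancy. Zbp1 had a log2 fold change of 1.05 ± 0.36 (SE, adjusted p = 0.075) and Irf1 of 1.23 ± 0.46 (SE, adjusted p = 0.10), and without CP replicate 2 the values were 0.32 and -0.13. On the same scale Gbp2, Tap1 and Igtp had 1.39, 0.95 and 0.78 with it and -0.51, 0.05 and -0.31 without it. Ifit3, Isg15 and Bst2 had 0.02, 0.02 and 0.01 on the log2 scale with all libraries and -0.16, -0.26 and -0.26 without CP replicate 2. Oas1g, Oas1a and Oasl2, listed as type I genes, had 0.74, 0.66 and 0.61 with all libraries. Over the alternative fits their lowest values were 0.15, -0.004 and 0.14. The type I genes Ifit2, Oasl1 and Rsad2, given above, had larger changes. With all libraries the 4 members below 0 were Ifit1 (-0.04), Usp18 (-0.16), Ifi44 (-0.28) and Ifih1 (-0.24).

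**Figure D4:**
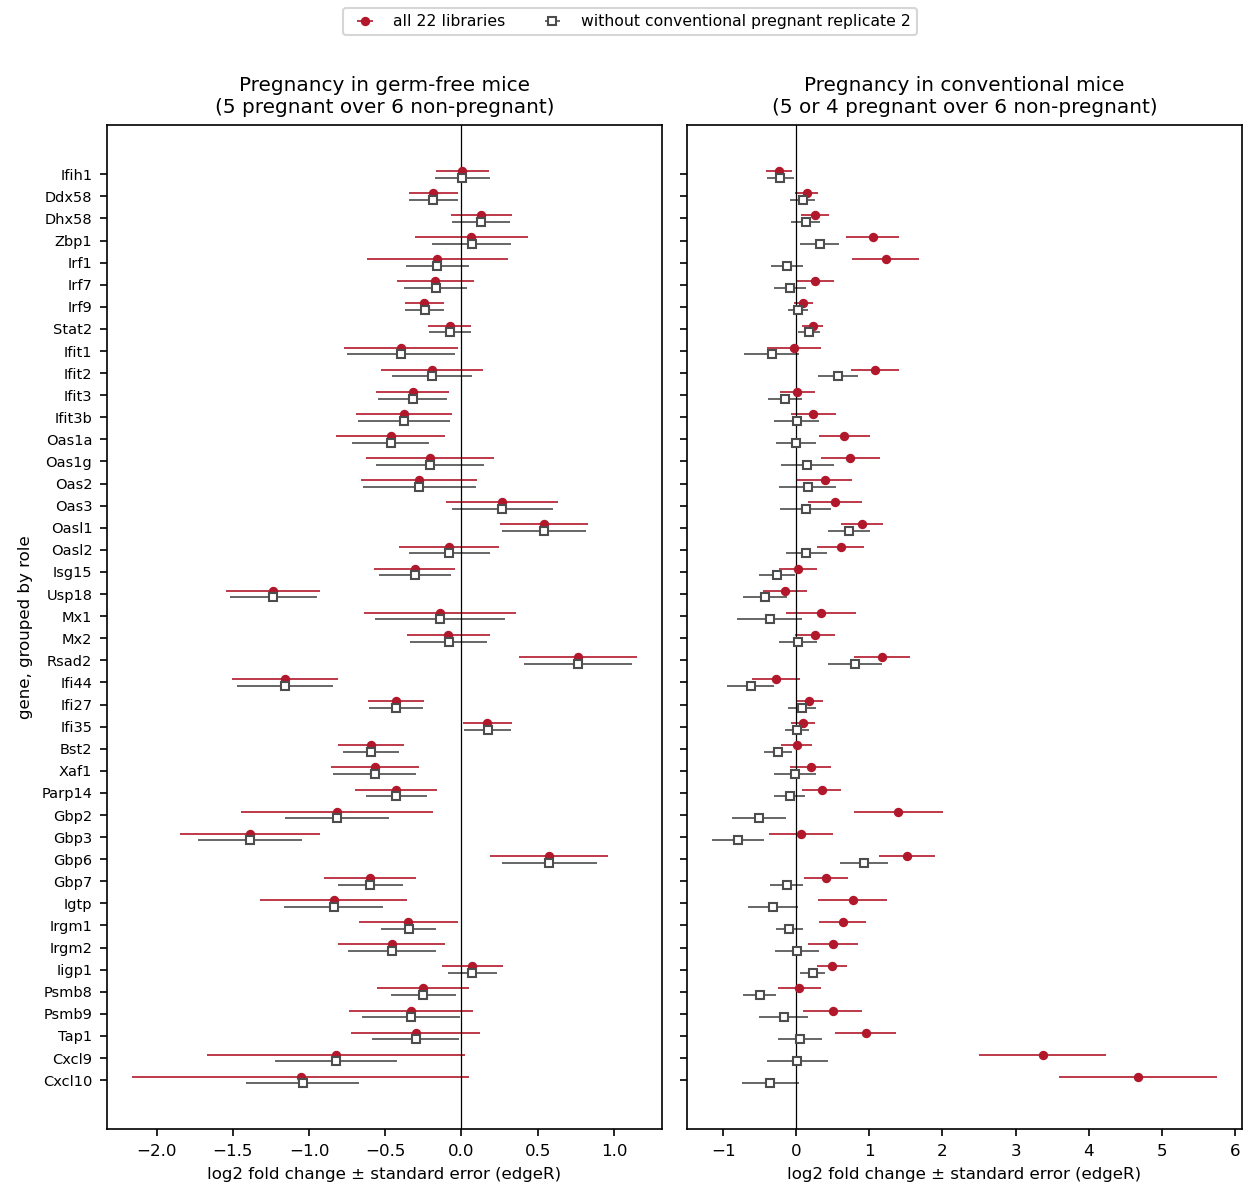
Log2 fold change ± standard error of each of the 42 members for pregnancy, in germ-free mice (GP over GN) and in conventional mice (CP over CN), with all libraries and without CP replicate 2. The conventional changes of Cxcl10 (4.67) and Cxcl9 (3.38) fall to about 0 when that library is left out. It belongs to neither germ-free group, so the germ-free changes could hardly move, with Usp18 at -1.24 in both fits.

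In germ-free pregnancy the share of members called lower with all libraries was near that of all tested genes. With all libraries edgeR called 2 of the 42 members lower in GP than in GN, Usp18 and Ifi44, and none higher, which is 4.76% of the members. Over all tested genes 7.15% were called higher and 3.6% lower. Without CP replicate 2, which belongs to neither group but enters the shared estimate of spread, 4 members were called lower (9.52%), with Gbp3 and Bst2 added, against 7.94% of all genes higher and 4.43% lower. DESeq2 called the same 4 lower on all libraries, and of its 35072 genes 1256 higher and 872 lower. The median change of the members was -0.29 on the log2 scale with 33 of 42 below 0, against a median of -0.02 and 52.2% below 0 over all genes.

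Usp18 (ENSMUSG00000030107, chr6:121245906-121270917, plus strand) had 7.52, 3.43, 5.62, 10.8 and 6.42 CPM in GP, against a lowest value of 10.1, a median of 14.3 and a highest value of 23.8 CPM in GN. GP replicate 4 lay above the lowest GN liver, and otherwise the groups did not overlap. Usp18 averaged 6.77 ± 2.72 CPM in GP (SD, n = 5) and 16.0 ± 5.06 CPM in GN (SD, n = 6), a log2 fold change of -1.24 ± 0.31 (SE, adjusted p = 0.0099). In conventional mice it had 10.6, 13.6, 7.12, 5.99 and 3.03 CPM in CP, against a lowest value of 6.71, a median of 8.57 and a highest value of 12.1 CPM in CN, and the groups overlapped, with a change of -0.16 ± 0.30 (SE, adjusted p = 0.83). GN was the group with the highest mean of the 4.

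Ifi44 (ENSMUSG00000028037, chr3:151730922-151749960, minus strand), an antiviral protein of the cytoplasm, had 2.57, 1.81, 1.44, 2.19 and 1.10 CPM in GP, against a lowest value of 1.74, a median of 4.07 and a highest value of 5.88 CPM in GN. The change was -1.16 ± 0.35 (SE, adjusted p = 0.032), and GN replicate 4, its lowest GN liver, lay among the GP livers. The Ifi44 call was lost when any of 6 libraries (GN replicate 1, 2 or 5, GP replicate 2, 3 or 5) was left out. The Usp18 call was kept in each of 29 alternative fits. Those that left out a CN or CP library could move it only through scaling, filtering and the shared spread. Gbp3 (ENSMUSG00000028268, chr3:142560026-142573209, plus strand) had 12.3, 3.05, 6.74, 6.35 and 6.85 CPM in GP, against a lowest value of 9.63, a median of 15.6 and a highest value of 34.6 CPM in GN. Its change was -1.39 ± 0.46 (SE, adjusted p = 0.056) with all libraries and -1.39 ± 0.34 (SE, adjusted p = 0.0079) without CP replicate 2. Only GP replicate 1 lay above the lowest GN liver.

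Bst2 (ENSMUSG00000046718, chr8:71534255-71537456, minus strand) had 188, 110.3, 109.6, 110.5 and 107.9 CPM in GP, against a lowest value of 116, a median of 183 and a highest value of 271 CPM in GN. GP replicate 1 lay within the GN range, and the other 4 GP livers lay below every GN liver. The change was -0.60 ± 0.22 (SE, adjusted p = 0.083) with all libraries and -0.59 ± 0.18 (SE, adjusted p = 0.033) without CP replicate 2. Isg15, whose promoter stretch held 3 matches, had a change of -0.31 ± 0.27 (SE, adjusted p = 0.53) and Ifit3 of -0.32 ± 0.24 (SE, adjusted p = 0.44), so neither passed. Members with a change above 0 in germ-free pregnancy included Rsad2 (0.76), Gbp6 (0.58) and Oasl1 (0.54), none of which passed.

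**Figure D5:**
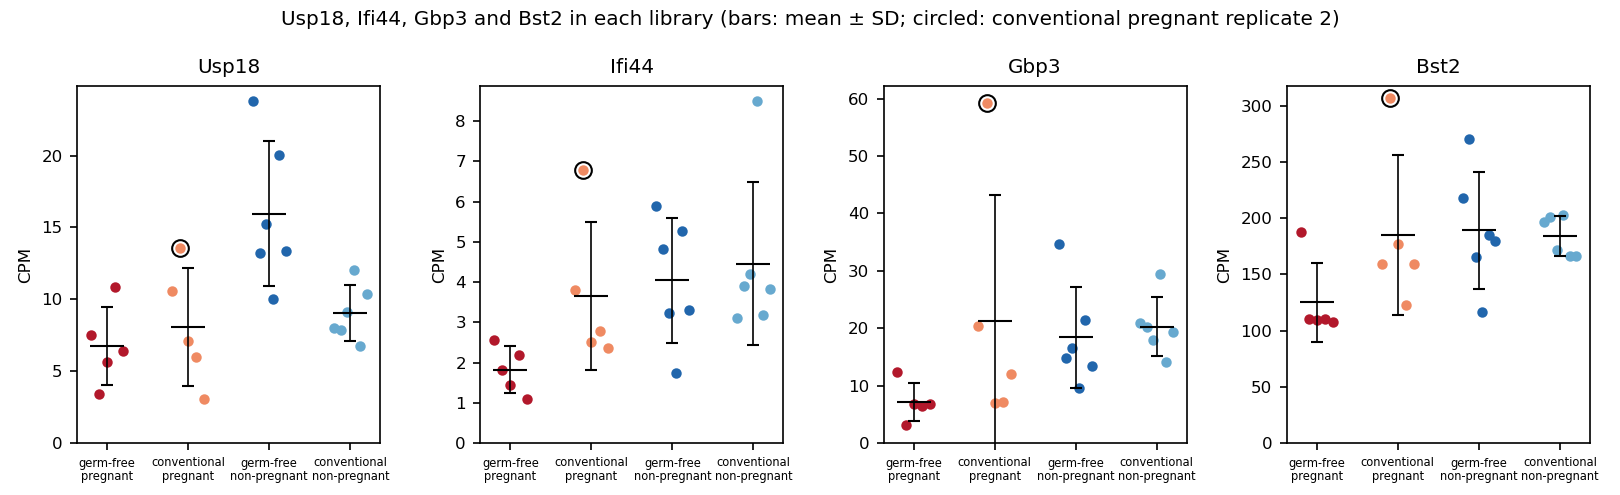
CPM of Usp18, Ifi44, Gbp3 and Bst2 in each library by group (GP, CP, GN, CN from left), with bars at the mean ± SD and CP replicate 2 circled (the lower Gbp3 bar of CP is cut at 0). GP has the lowest mean in each panel, with 107.9 to 110.5 CPM of Bst2 in 4 of 5, and the circled liver is the highest of the CP group in each panel. Without the circled liver CP averages 6.68 CPM of Usp18, just below the 6.77 CPM of GP.

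The level of the members as a set also differed between libraries of the same group. The median deviation of the 42 members from their own medians over the 22 libraries, on the log2 scale, was -0.65 in GP replicate 2, -0.33 in GP replicate 3 and 0.18 in GP replicate 1, against 0.51 in GN replicate 1 and -0.57 in GN replicate 4. GP replicate 2 was the lowest of the 22 libraries for 9 members and GN replicate 4 for 12. The share of counts from mitochondrially encoded genes, which can reflect RNA quality, was highest of all libraries in GN replicate 4 (31.99%), 8.11% in GN replicate 1 and lowest of all in CP replicate 2 (5.9%). The share did not follow the deviations throughout. It was 27.0% in GN replicate 2 (median deviation 0.09), 24.25% in GP replicate 1 (0.18) and 8.36% in GP replicate 5 (-0.28). Its part in the levels was not tested. Kupffer cell markers summed to 209 to 467 CPM in GP, against 180 to 457 CPM in GN, and monocyte markers to 29.8 to 65.1 CPM in GP, against 31.6 to 82.9 CPM in GN. No Kupffer cell or monocyte marker was called in either pregnancy comparison. Markers of other cells moved in both pregnancy comparisons. In germ-free mice, where 7.15% of all genes were called higher and 3.6% lower, 4 of 8 hepatocyte markers were called higher and 1 lower. Their sums were 136100 to 215400 CPM in GP, against 64210 to 96950 CPM in GN. All 5 erythroid markers were called higher, with sums of 1029 to 2147 CPM in GP, against 153 to 1070 CPM in GN. The stellate cell marker Lrat was lower (log2 change -1.30), and endothelial Stab2 (0.39) and cholangiocyte Krt19 (3.10) were higher. In conventional mice (5.49% of all genes higher, 3.52% lower) 2 hepatocyte markers were called higher and 2 lower. There 2 erythroid markers were higher and Lrat was lower (-1.21). These calls held without CP replicate 2, unlike those of 2 neutrophil markers. The part of these cells in the changes was not tested.

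Between germ-free and conventional mice no member was called in either pregnancy state. In non-pregnant mice (GN over CN) 0 of the 42 members passed in edgeR or DESeq2, with 1 at an unadjusted p under 0.05 in edgeR (2.38%, against 6.01% of all genes), and 0.157% of all genes passed (0.272% without CP replicate 2). Changes ran from -0.46 for Ifit3b to 0.83 for Usp18, which had an adjusted p of 0.45, and their median was -0.03, against -0.01 over all genes. In pregnant mice (GP over CP) 0 members passed in edgeR or DESeq2, while 27 had an unadjusted p under 0.05 in edgeR. All but 1 of the 42 changes were below 0, with a median of -0.73, against -0.03 over all genes, of which 0.132% passed. The members' share with an unadjusted p under 0.05 was 64.3%, against 10.5% of all genes. Without CP replicate 2 these shares were 7.14% and 7.76%, the median was -0.28, and 0.118% of all genes passed. Cxcl10 had a log2 fold change of -5.30 ± 1.22 (SE, adjusted p = 0.11) in GP over CP with all libraries and of -0.28 ± 0.41 (SE, adjusted p = 0.93) without that one.

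Averaged over pregnancy states, germ-free over conventional, 0 members passed in edgeR, and 0.753% of all genes did (0.885% without CP replicate 2). At an unadjusted p under 0.05 stood 18 members (42.9%), against 10.7% of all genes, and without CP replicate 2 these shares were 9.52% and 10.1%. DESeq2 called 1, Ifit3b, lower (adjusted p = 0.042), and edgeR gave it a log2 change of -0.76 ± 0.22 (SE, adjusted p = 0.13). Of its 35072 genes DESeq2 called 141 lower. The interaction, which sets the germ-free pregnancy change against the conventional one, called 0 members in edgeR and in DESeq2. Over all genes edgeR called 0.0% with all libraries and 0.00619% without CP replicate 2. At an unadjusted p under 0.05 stood 13 members (31.0%) with all libraries, against 5.67% of all genes, and 0 members without CP replicate 2, against 4.49% of all genes. Usp18, lower in germ-free pregnancy, had an interaction of -1.08 ± 0.43 (SE, adjusted p = 0.86), so the 2 pregnancy changes were not shown to differ. The pregnancy and microbiota comparisons share their groups, and their values are not independent of each other.

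Among receptors, Ifngr2, the signalling chain of the interferon gamma receptor, was called higher in conventional pregnancy, as were 5.49% of all tested genes. It had 19.5, 43.1, 29.9, 22.7 and 28.5 CPM in CP, against a lowest value of 13.1, a median of 18.4 and a highest value of 25.1 CPM in CN, a change of 0.64 ± 0.20 (SE, adjusted p = 0.042) and, without CP replicate 2, of 0.45 ± 0.19 (SE, adjusted p = 0.18). The other 4 receptors past the filter did not pass in either pregnancy comparison. Ifnar1 averaged 22.2 ± 3.16 CPM in GP, 22.8 ± 2.59 in CP, 20.5 ± 1.94 in GN and 19.5 ± 3.56 in CN (SD, n = 5, 5, 6 and 6). Ifnar2 averaged 69.7 ± 7.12 CPM in GP, 67.8 ± 16.1 in CP, 63.0 ± 4.92 in GN and 64.5 ± 10.6 in CN. Ifngr1 averaged 13.0 ± 2.96 CPM in GP, 15.6 ± 5.89 in CP, 13.1 ± 1.61 in GN and 13.0 ± 2.47 in CN. Il10rb, shared by the interferon lambda receptor, averaged 6.06 ± 1.74 CPM in GP, 10.1 ± 4.23 in CP, 7.88 ± 1.02 in GN and 7.69 ± 1.14 in CN, and the lambda-specific chain Ifnlr1, at a mean of 0.2 CPM or less per group, was not past the filter.

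Downstream of the receptors most of the pathway did not pass. Over all tested genes 5.49% were called higher and 3.52% lower in conventional pregnancy. Without CP replicate 2 these shares were 4.14% and 2.33%. Of 8 signal transducers, Irf8 and Tyk2 were called higher in conventional pregnancy, with 1.68 ± 0.48 (SE, adjusted p = 0.028) and 0.42 ± 0.13 (SE, adjusted p = 0.049), and without CP replicate 2 with 0.27 and 0.39, neither called. Of 8 inhibitors only Socs1 was called, with 3.64, which turned to -0.77 without that library. Of 11 tested sensors and adaptors upstream of interferon (Toll-like receptors, Sting, cGas and others) none was called in either pregnancy comparison. Of 4 tested chemokines and ligands outside the members, Ccl2 (4.69), Cd274 (1.70) and Cxcl11 (1.53) were called higher in conventional pregnancy. Leaving out CP replicate 2 gave Ccl2 0.92 (adjusted p = 0.32) and Cd274 0.21 (adjusted p = 0.83), neither called. Cxcl11, which the annotation lists as a polymorphic pseudogene, kept its call without CP replicate 2, with 1.11 ± 0.34 (SE, adjusted p = 0.049).

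Among 44 other interferon targets listed, 3 were called higher and 1 lower in conventional pregnancy, and 3 lower in germ-free pregnancy. Over all tested genes 5.49% were called higher and 3.52% lower in conventional pregnancy, and 7.15% and 3.6% in germ-free pregnancy. Cmpk2 (1.44), a nucleotide kinase next to Rsad2, Ms4a4c (2.17) and Ifi211 (1.46) lost their calls without CP replicate 2. Apol9b was called lower in both: -1.16 ± 0.21 (SE, adjusted p = 0.001) in conventional mice, -1.26 ± 0.23 (SE, adjusted p = 0.00091) without CP replicate 2, and -1.16 ± 0.21 (SE, adjusted p = 0.00073) in germ-free mice. Apol9a was lower in germ-free pregnancy with -0.81 ± 0.25 (SE, adjusted p = 0.038), as was the antibody-binding ubiquitin ligase Trim21 with -0.77 ± 0.24 (SE, adjusted p = 0.039). Apol9a and Apol9b are close paralogs whose reads may have been divided between them. Of 8 other interferon-inducible GTPases, Gbp9 was called higher in conventional pregnancy, with 1.85 ± 0.37 (SE, adjusted p = 0.0018) and, without CP replicate 2, 1.06 ± 0.24 (SE, adjusted p = 0.0066). It had 10.2, 39.0, 7.12, 7.59 and 8.42 CPM in CP, against a lowest value of 2.77, a median of 3.99 and a highest value of 5.78 CPM in CN. Of 13 other antigen presentation genes none was called in either pregnancy comparison with all libraries. Without CP replicate 2, Psmb10 was called lower in conventional pregnancy (-0.79). In germ-free pregnancy Ifitm1 (-0.88), Rtp4 (-0.72), Tgtp1 (-2.65), H2-Q4 (-0.60) and H2-Q6 (-0.98) were added to the genes called lower. Without that library 2.33% of all genes were called lower in conventional and 4.43% in germ-free pregnancy.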

How the data were processed

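The deposited table holds unscaled estimated counts, 1 row per gene. Per the submitters' processing notes, the authors used Salmon 0.11.3, edgeR 3.24.3 and GRCm38.p6. The annotation release and the read layout are not given in the sources used here. Since reads shared between transcripts are divided, 14.7% to 26.3% of values per library were not whole. Counts were rounded, which moved 0.0083% of the counts. Symbols and coordinates come from GENCODE M21 (99.93% of identifiers matched), and promoters come from RefSeq.

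Genes were filtered with the default of edgeR 4.0.16 (R 4.3.3; minimum count 10, total 15), scaled by TMM, and fitted in 1 quasi-likelihood model of 22 libraries with 1 term per group. P-values were adjusted by Benjamini-Hochberg over all 15928 genes tested (16155 without CP replicate 2). A call is an adjusted p under 0.05, from edgeR unless DESeq2 1.42.0 is named. Standard errors were derived from the F statistic. CPM are counts scaled to the TMM-adjusted library total. P-values measure the spread between mice, and count floors cover counting error only.

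The 42 members and the other gene lists were chosen with earlier results of these data known. The rule on naming took every member, with full values for those called with all libraries or without CP replicate 2, and the called genes of the other lists, besides ligands and receptors. The plots show members. Alternatives were RLE scaling, no low-count filter, only the groups compared, no mitochondrially encoded genes, near-identical pairs summed, a replicate block, DESeq2 and leaving out each library.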

Additional observations from a re-analysis of the deposited data

Results flagged for a closer look

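Of 168 combinations of a member and a group, 19 held a single library farther from the rest than a test for outlying values (Dixon's, on log2 CPM) allows, where chance gives about 1 in 20. CP replicate 2 accounted for 8 of the 19, each as the highest of its group. They were Cxcl10 (345.4 CPM, others 1.81 to 3.07), Cxcl9 (491.2 CPM, others 6.86 to 13.1), Irf1 (229.5 CPM, others 22.3 to 29.4), Igtp (192.3 CPM, others 21.9 to 36.4), Tap1 (116.4 CPM, others 18.1 to 27.6), Iigp1 (661.9 CPM, others 306.3 to 367), Zbp1 (55.15 CPM, others 10.9 to 15.8) and Oas1g (6.96 CPM, others 1.74 to 2.35).

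Igtp was also outlying in GN replicate 1 (115.4 CPM, others 20.3 to 36.0). Bst2 in GP replicate 1 (188.1 CPM) lay above the other 4 GP livers (107.9 to 110.5 CPM), which spanned a narrow range. CP replicate 1 was high for Ifih1 (34.91 CPM, others 23.4 to 26.2) and CN replicate 4 for Ifi44 (8.507 CPM, others 3.11 to 4.21).

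The remaining 7 were low values. GN replicate 4 was low for Isg15 (6.998 CPM, others 14.0 to 18.7) and for Ifit3b (1.473 CPM, others 3.52 to 4.35). CN replicate 5 was low for 3 members, Gbp6 (10.34 CPM, others 16.9 to 21.6), Tap1 (11.28 CPM, others 19.5 to 26.28) and Zbp1 (9.204 CPM, others 10.3 to 10.8). Stat2 was low in CP replicate 3 (37.2 CPM, others 55.9 to 61.1) and Ifi27 in CN replicate 1 (51.19 CPM, others 74.3 to 87.0).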

How the results depend on the processing

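In conventional pregnancy the count of 5 members called higher became 2 with only the CP and CN libraries (Gbp6 and Oasl1) and 2 with the replicate block (Gbp6, log2 change 1.38, adjusted p = 0.049, and Rsad2, 1.32, adjusted p = 0.027). Leaving out 1 library at a time gave 0 to 7 calls. It was 0 without CP replicate 2, 3 without CP replicate 1, CN replicate 2, 3, 4 or 5, or GP replicate 5, and 7 without CP replicate 5. Cxcl10 turned to -0.354 without CP replicate 2, and leaving out 1 library gave -0.354 to 4.986. With the replicate block Cxcl10 had 1.81 (adjusted p = 0.44) and Cxcl9 1.68 (adjusted p = 0.32), both no longer called. RLE scaling, no low-count filter and removal of mitochondrially encoded genes each left 4 calls, and Oasl1 lost its call in all 3. Over 29 alternatives Gbp6 was called in 28, Cxcl9 and Cxcl10 in 25 each, Ifit2 in 20 and Oasl1 in 9. These tallies do not measure how far a call rests on CP replicate 2, which every fit kept but the one without it. Fits that left out a GN or GP library, outside the groups compared, could move these calls only through scaling, filtering and the shared spread.

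In germ-free pregnancy the count of 2 members called lower became 4 in DESeq2 and 3, with Gbp3 added, with no low-count filter and with only the GP and GN libraries. Leaving out 1 library gave 1 to 5 calls: 1 without GN replicate 1, 2 or 5 or GP replicate 2, 3 or 5, 4 without CP replicate 2 or GN replicate 4, and 5 without GP replicate 1. Usp18 ranged from -1.471 to -1.07 over these fits, with adjusted p of 0.0036 to 0.033, and with the replicate block it had -1.26 (adjusted p = 0.020). Ifi44 kept its call in 23 of 29 alternatives, which include fits without a CN or CP library, outside the groups compared.

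In pregnant germ-free against conventional mice the count of 0 became 1 with no low-count filter (Cxcl10, -5.36, adjusted p = 0.022), and leaving out 1 library gave 0 to 1, the call being Cxcl10 without CP replicate 3. Averaged over pregnancy states it became 1 in DESeq2 (Ifit3b). Summing Ifit3 with Ifit3b and Oas1a with Oas1g moved no count. Deviations of same-numbered libraries correlated at -0.255 to 0.31 and not above 0.1 in every pair, although the GN and GP pairs were all positive (0.0044 to 0.147). The numbers were therefore not taken to pair the samples. Where 1 library was left out the cause of a moved count was not tested. Members at a few CPM, such as Cxcl10, Ifi44 and Mx1, rest on few counts.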
